A study of Mus musculus with 4 samples.

Results

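Open chromatin around 9 genes of the coreceptors and of the choice between CD4 and CD8 lineages was examined in mouse thymocytes with and without Chaf1b. The genes were taken as listed: Cd4, Cd8a, Cd8b1, Zbtb7b, Runx1, Runx3, Cbfb, Tox and Gata3, 9 of 21900 placed protein-coding genes. For each gene, called ATAC-seq regions were collected within 1000 bp of its annotated ends and over its body with 50 kb on either side. These loci held 16 of 7645 KO regions and 37 of 15215 WT regions, with the regions lying between Cd8b1 and Cd8a counted once.

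The KO mice carried Cd4-cre and the CHAF1bfloxp/floxp alleles, and the WT mice carried the CHAF1bfloxp/floxp alleles without Cre. Both were on a C57BL/6 background, and the cells were CD4+CD8+ thymocytes sorted from thymus, with no age given in the labels. Chaf1b encodes a subunit of the histone chaperone CAF-1. Each group had 2 replicates, which the authors combined into 1 peak list, so the lists hold no value per replicate, no test between the groups was made from them, and no difference below has a replicate check. Cre in the KO mice was driven by Cd4 regulatory sequence, which the WT mice did not carry in added copies, so reads of the transgene and reads of Cd4 itself cannot be told apart in the lists.

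Double-positive thymocytes display both coreceptors and then settle on 1 of them. ThPOK, encoded by Zbtb7b, holds cells in the CD4 lineage and is preceded by GATA3 and TOX. RUNX proteins, which bind DNA together with their partner CBFβ, silence Cd4 and Zbtb7b in cells of the CD8 lineage. Cd4 is known to be controlled by an enhancer upstream of its promoter and by a silencer within the gene, and the Cd8 genes by several enhancers along their shared locus. Called regions were not assigned to these elements, because no file used here gives their positions.

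Promoter windows were available for 6 of the 9 genes, from RefSeq on GRCm38.p6, in 9 windows of 250 bases before an annotated start. None was available for Cd4, Cd8b1 and Tox, and Cd8b1 and Tox had a region within 1000 bp of a gene end in both lists. A KO region overlapped 0 of the 9 windows, and a WT region overlapped 2. The same shares over all windows of the RefSeq table are not given here, so these counts stand without a comparison. Shown are the windows with a WT region, at Runx3 and Cbfb, and for comparison a window without a region in either list at Cd8a and at Zbtb7b. Capitals mark the RUNX core, searched as TGTGGT or TGCGGT on both strands. The windows are chr4:135120395-135120644 on the plus strand (Runx3), chr8:105170424-105170673 on the plus strand (Cbfb), chr6:71373177-71373426 on the plus strand (Cd8a) and chr3:89387672-89387921 on the minus strand (Zbtb7b, inner start).
Runx3: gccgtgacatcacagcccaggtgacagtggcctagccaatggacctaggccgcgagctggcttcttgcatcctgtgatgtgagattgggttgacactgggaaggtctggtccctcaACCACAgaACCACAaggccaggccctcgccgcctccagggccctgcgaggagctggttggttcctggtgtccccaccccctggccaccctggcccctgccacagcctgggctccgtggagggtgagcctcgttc
Cbfb: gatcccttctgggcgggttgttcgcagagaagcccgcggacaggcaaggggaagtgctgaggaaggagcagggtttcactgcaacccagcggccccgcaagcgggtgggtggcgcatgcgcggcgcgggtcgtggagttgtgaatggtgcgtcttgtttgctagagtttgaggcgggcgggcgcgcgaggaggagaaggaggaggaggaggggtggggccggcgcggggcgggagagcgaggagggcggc
Cd8a: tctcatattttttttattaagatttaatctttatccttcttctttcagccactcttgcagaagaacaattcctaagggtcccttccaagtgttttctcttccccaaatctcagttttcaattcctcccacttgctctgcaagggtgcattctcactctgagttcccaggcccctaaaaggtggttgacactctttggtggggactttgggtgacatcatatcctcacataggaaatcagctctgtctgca
Zbtb7b: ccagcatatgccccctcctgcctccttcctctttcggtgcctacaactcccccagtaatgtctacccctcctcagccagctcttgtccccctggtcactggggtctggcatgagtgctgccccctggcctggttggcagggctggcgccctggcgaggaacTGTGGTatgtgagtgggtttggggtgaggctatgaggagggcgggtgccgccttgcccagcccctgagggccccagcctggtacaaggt

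The Runx3 window held the RUNX core at 2 places, 134 and 126 bases before the start. The inner Zbtb7b window held it at 1 place, 89 bases before the start, and the Cbfb and Cd8a windows held none. The windows not printed also held none: the outer Zbtb7b window, the inner Runx3 window, both Runx1 windows and the Gata3 window. Of 32851 windows in the RefSeq table, 18.6% held the core. An E-box, CANNTG, occurred in 66.2% of those windows, at 2 places in the Cd8a window, 1 in the Runx3 window, 1 in the inner Zbtb7b window and 0 in the Cbfb window. These matches describe letters and not bound sites. GC content was 65.2% in the Runx3 window, 69.2% in the Cbfb window, 64.8% in the inner Zbtb7b window and 42.8% in the Cd8a window, against a median of 52.4% over the table.

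Values below use the number of reads stacked at a region's summit, worked out from the authors' fold enrichment and p-value, and the local background, the read level MACS2 computed around the summit. The genome background was 1.03 reads in KO and 1.37 in WT, which puts the KO list at 0.752 times the WT depth. Intervals are exact, at 95%, and cover counting error only. The sorted cells were also checked against marker genes at gene ends. Over all protein-coding genes, 21.1% had a KO region at a gene end and 34.6% a WT region. Of 12 markers of double-positive cells, 1 had a KO region and 7 a WT region. The marker sets are small, and their counts were not tested against the shares over all genes. Cd4 and Cd8a, whose products define the sorted cells, had a gene-end region in neither list. Of the 5 markers of mature single-positive thymocytes, 1 had a KO region and 3 a WT region. Among 5 natural killer markers, Gzma and Prf1 had a region in both lists. The B cell markers had 0 of 6 in KO and 1 of 6 in WT, and the myeloid, erythroid and thymic epithelial markers had 0 in either list.

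Within 1000 bp of a gene end, a KO region was called at 2 of the 9 genes, where 21.1% of all protein-coding genes had one. A WT region was called at 4 of the 9, where 34.6% of all genes had one. Cd8b1 and Tox had a region in both lists, Runx3 and Cbfb in WT only, and the other 5 genes in neither. Of the 4 genes with a WT region, 2 thus had a KO region (50%, interval 6.76 to 93.2), beside 59.4% over all genes, an interval too wide to set the genes apart.

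Over the whole loci, 14 of 16 KO regions had a WT counterpart (87.5%, interval 61.7 to 98.4), beside 92.6% of the whole KO list. A KO counterpart was found for 13 of the 37 WT regions (35.1%, 20.2 to 52.5), beside 46.2% of the whole WT list, a value inside that interval. The 13 WT regions with a KO counterpart had a median fold enrichment of 7.0, and the 24 without had 5.25. In the whole WT list these medians were 8.23 and 5.67. WT reads and WT local background were then scaled by depth alone, with counting error and any other difference in KO background left aside. On that basis, 23 of the 24 WT regions without a counterpart would still pass the weakest p-value of the KO list. So would 94.5% of such regions in the whole list. The exception in the loci was a weak region 1.8 kb from Ptms in the Cd4 locus, with 9 WT reads.

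Loci differed in how much of them was called. Gata3 had 2 KO and 2 WT regions and all overlapped, while Runx3 had 0 KO and 2 WT regions. Cd4 had 4 KO and 7 WT regions in 124 kb, a WT density of 5.67 regions per 100 kb, at percentile 98.9 of protein-coding genes. Cd8b1 and Zbtb7b also lay in dense surroundings, with 2 KO and 5 WT regions each and 4.36 and 4.31 WT regions per 100 kb. Tox and Runx1, the longest genes, had 2 and 3 KO regions, against 7 WT regions each. Cd8a had 1 KO and 2 WT regions, and Cbfb 1 KO and 2 WT regions. The median gene had 1 region in either list.

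**Figure D1:**
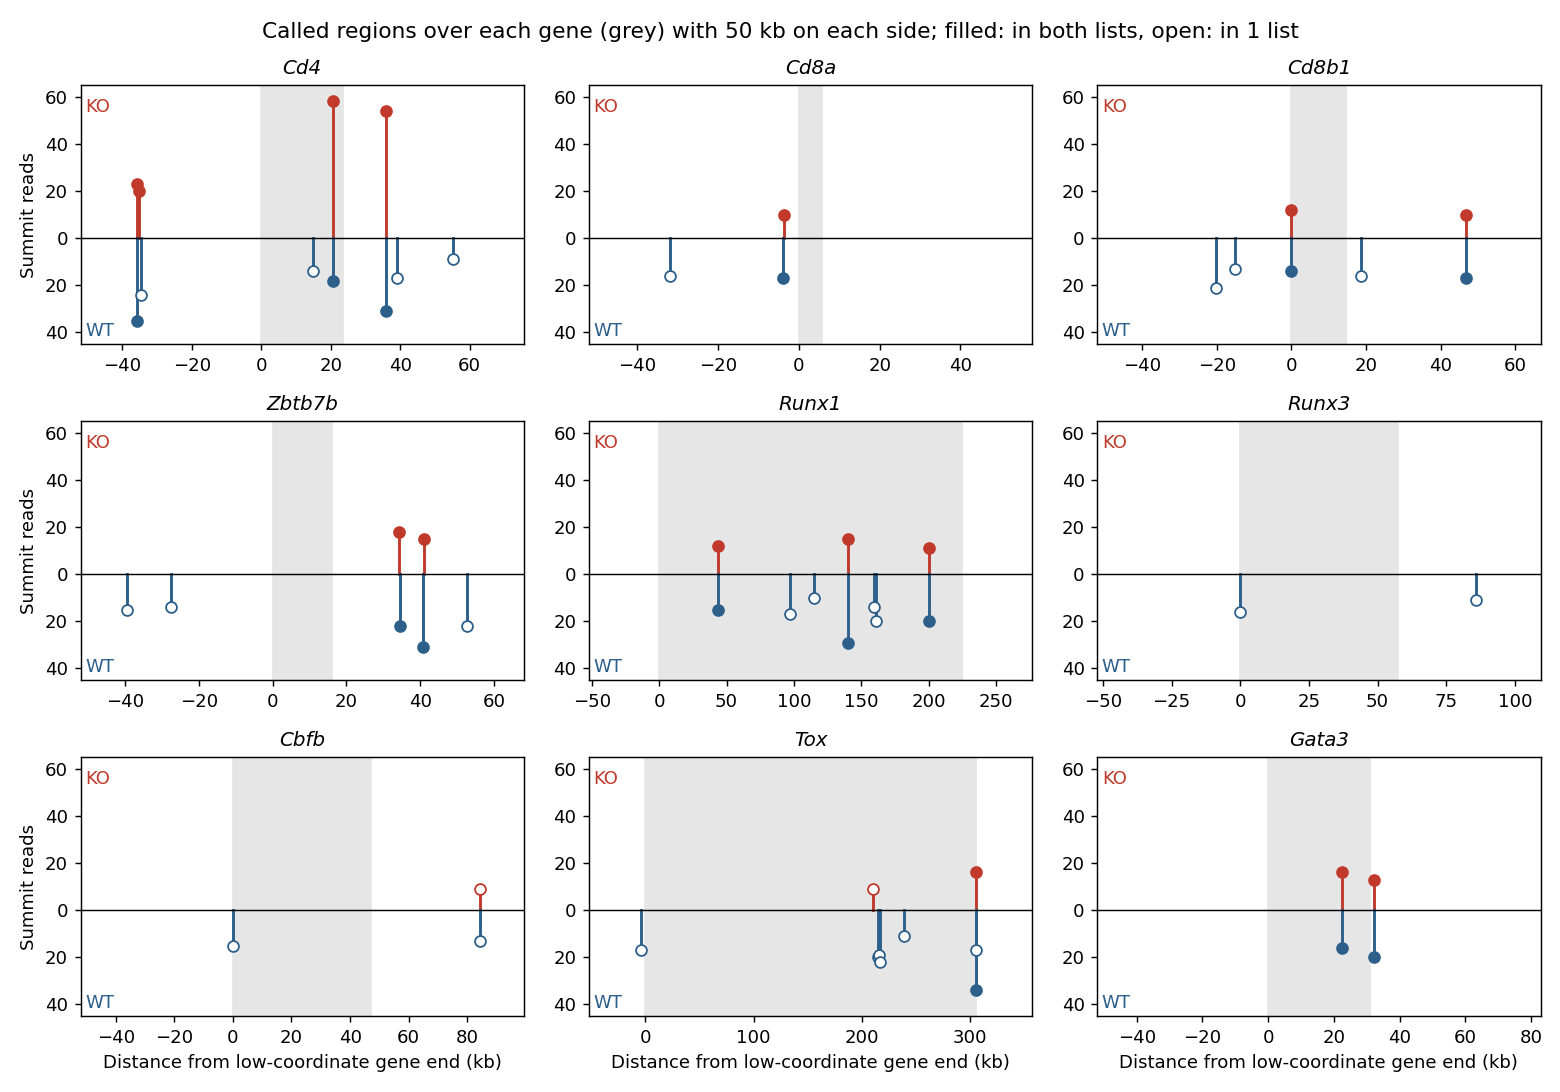
Summit reads (vertical axis, KO upward and WT downward) of each called region against its distance in kb from the low-coordinate end of the gene, for 9 genes (grey) with 50 kb on each side. Filled points overlap a region of the other list, and open points do not. The 2 tall KO stems, at 58 and 54 reads, both lie in the Cd4 panel.

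Cd4, the coreceptor for MHC class II, stood apart from the other loci. Inside the gene, 2.92 kb from its high-coordinate end, a region had 58 summit reads in KO (44.0 to 75.0; chr6:124885153-124885486), against 18 in WT (10.7 to 28.4; chr6:124885245-124885467). The intervals do not overlap. The KO to WT ratio was 3.22 (1.87 to 5.81), which is 4.28 times the ratio set by depth (2.49 to 7.73). It ranked 1 among the 6875 regions of the 2 lists that overlap only each other. The summits lay 2 bp apart. The region was wider in KO, at 334 bp against 223 bp in WT. Its fold enrichment was nevertheless 5.73 in KO and 6.64 in WT, with a local background of 9.30 in KO and 1.86 in WT. That corresponds to 465 KO and 93 WT reads in the 10 kb around the summit. The background ratio, 5.0, also ranked 1 of 6875, and the next highest was 1.3.

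A further region outside Cd4, 12.3 kb beyond the same end, was the other one in the loci with more KO than WT reads. It had 54 summit reads in KO (chr6:124900361-124900730), against 31 in WT (chr6:124900203-124900744), a ratio of 1.74 (1.10 to 2.80), or 2.32 times the depth ratio (1.46 to 3.73). It ranked 4 of 6875. Here the local background was 2.72 in KO and 3.02 in WT, or 0.901 as a ratio, which ranked 413 of 6875, where the median was 0.692 and depth gives 0.752. Its fold enrichment was 14.8 in KO, at percentile 98.3 of that list, against 7.96 in WT, at percentile 70.2. The nearest gene is Lag3, an inhibitory receptor for MHC class II, 3.62 kb from the WT region. The Cd4 locus thus held ranks 1 and 4. The remaining regions among the 3 closest in ratio to the one inside Cd4, at ranks 2 and 3, were a site 28.9 kb from Cd200, with 27 KO and 12 WT reads, and the end of Ctcf, with 19 KO and 10 WT reads. Their background ratios were 0.962 and 0.924. Whether added copies of Cd4 sequence in the KO mice account for any of these reads was not tested.

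**Figure D2:**
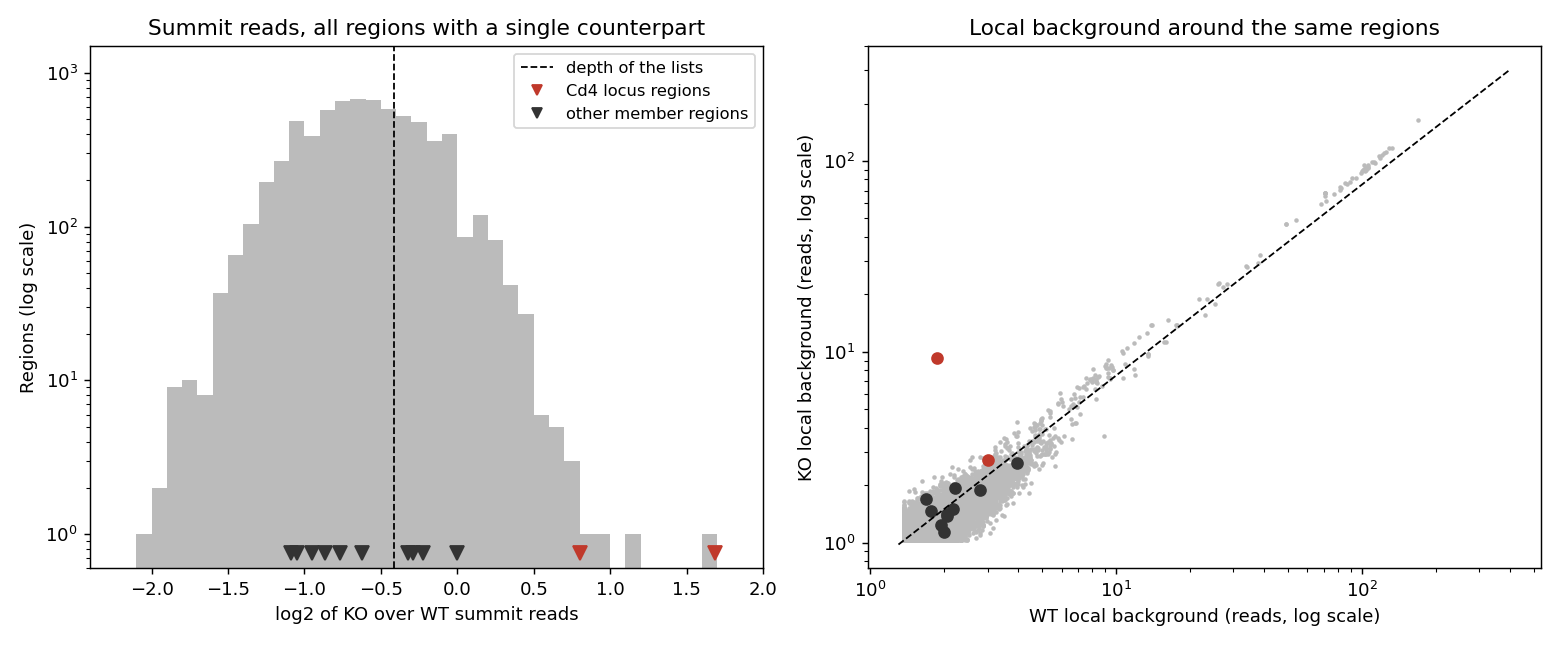
Left, number of regions (log scale) by the log2 ratio of KO over WT summit reads, for 6875 regions that overlap only each other. Triangles mark the regions of the Cd4 locus (red) and of the other 8 genes (black), and the dashed line the depth of the lists. Right, KO against WT local background in reads (log axes) of the same regions, with the same colours. The region inside Cd4 lies far from the others in the right panel, with 9.30 KO and 1.86 WT reads, while the second Cd4 region does not.

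The other called regions of the Cd4 locus were in WT only, or held fewer reads in each KO region than in WT. Where no KO region was called, the lists give no KO reads or background, so a raised KO background there could not be seen. Inside the gene, 8.70 kb from its high-coordinate end, a WT region of 14 reads (chr6:124879420-124879653) had no KO counterpart. At Lag3, a WT region of 17 reads (chr6:124903627-124903907), fold 4.64, had none either. On the far side, at the ends of Usp5 and Cdca3, a WT region of 35 reads (chr6:124828845-124829674) overlapped a pair of KO regions, of 23 and 20 reads, and a WT region of 24 reads beside it had no KO region. Local backgrounds there were 2.84 and 2.80 in KO, against 3.34 and 3.46 in WT.

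Cd8a and Cd8b1 encode the α and β chains of the coreceptor for MHC class I and lie next to each other. Cd8b1 had a region just outside its low-coordinate end in both lists, with 12 KO reads (chr6:71322239-71322733) and 14 WT reads (chr6:71322472-71322742). The ratio of 0.857 (0.362 to 2.0) includes the depth ratio of 0.752 in its interval. This region was wider in KO, at 495 bp against 271 bp in WT. A second region in both lists lay 3.81 kb before Cd8a by its KO summit and 3.87 kb by its WT summit, with 10 KO reads (chr6:71369485-71369710) and 17 WT reads (chr6:71369411-71369735). Between the genes, 3.91 kb beyond Cd8b1, a region of 16 reads (chr6:71341300-71341506) was called in WT only. Further away, 20.3 kb before Cd8b1 at the end of Gm1070, a WT region of 21 reads and fold 8.03 (chr6:71302398-71302690) had no KO counterpart. In the whole list 69.6% of WT regions in the same decile of fold had one. A WT region of 13 reads 15.0 kb before Cd8b1 had none either.

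Zbtb7b, the gene of ThPOK, had no region at its ends or in its body in either list. The called regions of its locus lay at neighbouring genes. At the end of Flad1, 18 reads in KO (chr3:89411871-89412076) stood against 22 in WT (chr3:89411846-89412188). At Cks1b and Shc1, 15 reads in KO (chr3:89418270-89418581) stood against 31 in WT (chr3:89418254-89418638). The second ratio, 0.484 (0.243 to 0.924), was among the lowest of the loci, at percentile 13.3 of 6875 regions, and its interval includes the depth ratio. At Pygo2 and Shc1, a WT region of 22 reads and fold 8.04 (chr3:89430145-89430413) had no KO region. Regions at Efna4, of 15 reads, and at Adam15, Dcst1 and Dcst2, of 14 reads, were likewise in WT only.

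Gata3, a zinc finger factor needed for CD4 lineage cells, kept both of its regions. Inside the gene, 16 KO reads (chr2:9879589-9879788) stood against 16 WT reads (chr2:9879587-9879850), giving a ratio of 1.0 (0.468 to 2.14) at percentile 93.2. This was the weakest WT region of all 9 loci by fold, at 3.43 with a local background of 3.96, against 4.70 with a background of 2.62 in KO. In the whole list only 13.8% of WT regions in that decile of fold had a KO counterpart. Past the high-coordinate end of the gene, 13 KO reads (chr2:9889321-9889546) stood against 20 WT reads (chr2:9889043-9889742), in a region of 226 bp in KO and 700 bp in WT. The promoter window of Gata3 lay 739 bp from the nearest KO region and 737 bp from the nearest WT region.

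Tox, an HMG-box factor required for CD4 lineage development, had its strongest region at the high-coordinate end. It held 16 reads in KO (chr4:6991270-6991501) and 34 in WT (chr4:6991158-6991491). The ratio, 0.471 (0.243 to 0.876), was the lowest of the loci, at percentile 10.8, and its interval includes the depth ratio. A second WT region of 17 reads at the same end (chr4:6990659-6991002) had no KO region. In the body, 87.7 to 90.0 kb from that end, WT regions of 20, 19 and 22 reads (chr4:6901421-6901631, chr4:6902208-6902508 and chr4:6903723-6903995) formed a cluster without a KO region. A KO region of 9 reads (chr4:6895994-6896193) lay 95.4 kb from the end with no WT region. WT regions of 11 reads in the body and of 17 reads 4.14 kb outside the low-coordinate end, fold 7.03 (chr4:6682085-6682406), also had no KO counterpart.

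Runx1, the RUNX factor that represses Cd4 in immature thymocytes, had all its regions inside the gene, at 3 sites in KO and 7 in WT. A WT counterpart existed for every one of the 3 KO regions. The strongest held 15 reads in KO (chr16:92741394-92741616) and 29 in WT (chr16:92741326-92741701), a ratio of 0.517 (0.258 to 0.997). The others held 12 KO and 15 WT reads (WT chr16:92644735-92644934) and 11 KO and 20 WT reads (WT chr16:92801642-92801928). All 3 intervals include the depth ratio. Called in WT only were 4 regions of 10 to 20 reads. Of these, the region of 17 reads at chr16:92698659-92698892 lay 1080 bp from the inner promoter window, while the nearest KO region was 43815 bp from it.

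Runx3, which takes over the silencing of Cd4 in CD8 lineage cells, had no KO region across its low-coordinate end, against 16 reads in WT (chr4:135120288-135120677). This WT region covers the Runx3 window printed above, with both RUNX cores. The nearest KO region was 152174 bp from that window. Cbfb, the partner subunit of the RUNX proteins, likewise had no KO region across its low-coordinate end, against 15 reads in WT (chr8:105170460-105170724). Scaled to the KO depth these would be 12 and 11.3 reads, where the lowest KO region had 7. In the whole list 25.8% and 34.1% of WT regions in the same deciles of fold, 5.70 and 6.20, had a KO counterpart. Near B3gnt9, in the Cbfb locus, a KO region of 9 reads (chr8:105255007-105255206) and a WT region of 13 reads (chr8:105254762-105254980) lay beside each other without overlap.

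Across the loci, 12 regions overlapped only each other. The KO to WT ratio of summit reads had a median of 0.725, beside 0.655 in the whole lists, and 6 of 12 lay above the depth ratio, beside 31.3% in the whole lists. The interval left out the depth ratio at 2 of 12, both in the Cd4 locus. The share of the whole lists whose interval does so is not given here, so this count stands without a comparison. KO reads exceeded WT reads at these 2 regions, 16.7% of 12, beside 5.45% in the whole lists. Summed, KO held 48.4% of the reads (44.0 to 52.8), and without the Cd4 locus 38.8% (33.7 to 44.0), where depth alone gives 42.9% and the whole lists gave 40.4%. Summits lay 2 to 83 bp apart, with a median of 41 bp against 29 bp in the whole lists. KO regions were the wider at 3 of 12, beside 17.0% in the whole lists.

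**Figure D3:**
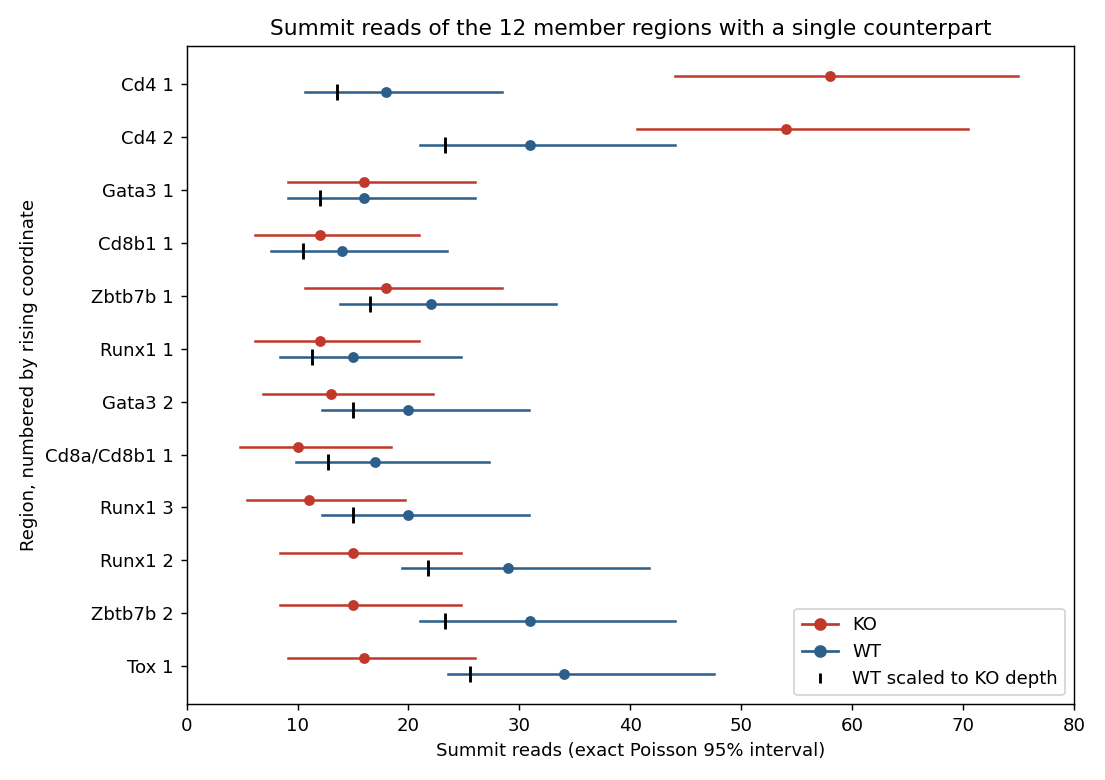
Summit reads (horizontal axis, with exact Poisson 95% intervals) of the 12 regions that overlap only each other, KO in red above WT in blue, ordered by the ratio of KO over WT and numbered by rising coordinate within each locus. Black ticks are WT reads scaled to the KO depth. The 2 Cd4 regions lie at 58 and 54 KO reads, beyond their ticks, while the KO intervals of the other 10 hold the tick.

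Other genes known to act on lineage choice or coreceptor expression were examined at their ends too. Of 32 listed, 5 had a KO region there, beside 21.1% of all genes, and 14 a WT region, beside 34.6% of all genes. All 5 were in both lists (35.7% of 14, interval 12.8 to 64.9), beside 59.4% over all genes, a value inside the interval. In both lists were Tcf3, encoding the E protein E2A (fold 4.80 in KO and 7.25 in WT), Hdac2, a histone deacetylase (4.97 and 6.88), Socs1, an inhibitor of cytokine signalling (5.52 and 6.61), Stat6, which acts downstream of interleukin-4 (5.73 and 4.84), and Zfp281 (5.05 and 4.58). With a gene-end region in WT only were Hdac1 (8.61) and the kinases of cytokine receptors Jak1 (7.32) and Jak3 (5.69). So were the cytokine receptor chain Il2rg (5.90) and Stat5a (5.84), which these kinases activate. The nuclear factors Bcl11b (6.69), Ikzf3 (5.90), Patz1 (5.66) and Satb1 (5.56) were also in WT only. Patz1 encodes MAZR, a repressor of the Cd8 genes and of Zbtb7b. The other 18, Tcf7, Lef1, Myb and Lck among them, had a gene-end region in neither list.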

How the data were processed

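ATAC-seq was run on 2 KO and 2 WT samples, and per the labels the replicates of a group share 1 peak list. The submitters' processing notes name MACS2 2.1.4, deepTools 3.4.1, Bowtie2, Trim Galore, FastQC, Picard and GATK with the build mm10. Settings, including read shifting and duplicate removal, are not given in the sources used here. The deposited lists give a score, the fold enrichment at the summit as a ratio, and -log10 of p and q. Summit positions were taken from the deposited peak lists, and the separate summit files, which repeat them, were not used.

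Reads and local background were solved at each summit from fold = (reads + 1) / (background + 1) and the Poisson tail, with an error in -log10 p of at most 0.00017. The commonest background served as relative depth, since total reads per library were not used here. A background step of 0.02 corresponds to 1 read of 200 bp in 10 kb. The solver and the overlap were tested on simulated data. Regions of 1 bp overlap or more counted as shared. Gene ends came from RefSeq, GRCm38.p6. Strand, exons and introns were not used, except the strand of the promoter windows.

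Named regions were those at gene ends, the 3 of highest WT fold per locus, KO regions without a WT region, and those with a ratio in the outer 5%; others were added after their values were seen. The members, lists and motifs were chosen with earlier results of these data known. Shares carry Clopper-Pearson and reads Poisson intervals. Alternatives varied the q threshold, overlap, flank, gene-end window and the inclusion of Cd4. Computation used scipy 1.17.1, numpy 2.4.6 and pandas 2.3.3 under Python 3.11.15, with figures from matplotlib 3.10.9.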

Additional observations from a re-analysis of the deposited data

How the results depend on the processing

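The KO share of summed summit reads at the lineage choice loci was 48.4% with Cd4 and 38.8% without, and 47.1% and 45.1% with flanks of 10 and 100 kb. The share of WT regions with a KO region went from 33.3% to 39.1%, and that of KO regions with a WT region from 83.3% to 91.7%, under all alternatives run. With a -log10 q of at least 5, a KO gene-end region was found for 1 of 4 members and 2 of 13 partner genes that had one in WT, where the full lists gave 2 of 4 and 5 of 14. With a gene-end window of 2000 bp these were 3 of 5 and 8 of 18. Most regions here held under 30 reads, so that differences in depth-scaled reads below about the width of the intervals were not detectable. No paired analysis was possible because each list pools both replicates of its group, and leaving out a replicate could not be run for the same reason.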
